A study of Mus musculus with 29 samples.

Results

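Of 16 non-tumour livers from carcinogen-treated mice, 4 carried Afp, the alpha-fetoprotein gene, at 20 CPM or more (counts scaled to a common library total), and the other 12 lay below. The groups were chosen by this measured level of Afp and by nothing else. These 4 high-Afp livers were compared with the 12 low-Afp livers across all other genes, and the differences were set beside those between tumour and non-tumour liver. The mice were C57BL/6, were injected with diethylnitrosamine (DEN), a liver carcinogen, at 25 mg/kg at 2 weeks of age, and were then fed for 18 weeks. All 29 libraries of the series share that exposure, so no library comes from an unexposed liver. Tumours gave 13 libraries: 4 labelled IL17RA-/- and 3 WT on the treatment labelled HFD_alcohol (called alcohol here), and 3 of each genotype on HFD. Non-tumour liver gave 5 and 5 on alcohol and 3 and 3 on HFD. Sample labels say HFD and HFD_alcohol, whereas the series text describes liquid ethanol feeding and pair-feeding, and the sample labels were used. The sex of the mice is not given in the sources used here. No label ties a library to an animal, so the p-values below measure the spread between these libraries.

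Afp is made by hepatocytes of the fetal liver and is switched off after birth. In mice the zinc-finger proteins Zhx2 and Zbtb20 and the homeobox protein Zfhx3 act as repressors of it, and Zhx2 also controls Gpc3 and H19 in the adult liver. Hepatocellular tumours often express Afp again, together with other genes of the fetal liver, and Afp protein in blood is a marker of such tumours.

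Each combination of diet and genotype label held 1 high-Afp liver. Afp (ENSMUSG00000054932, chromosome 5, 90490737 to 90508907, plus strand, GRCm38) was 155 CPM in the HFD IL17RA-/- liver (replicate 3), 141 in the HFD WT liver (replicate 1), 32.4 in the alcohol IL17RA-/- liver (replicate 5) and 28.97 in the alcohol WT liver (replicate 4). In the 12 low-Afp livers it ran between 0.873 and 9.37 CPM with a median of 5.86. The value just inside the threshold was 28.97 CPM and the one just outside was 9.37 CPM, in an HFD WT liver (replicate 2), so a threshold of 10 CPM gives the same groups. In the 13 tumours Afp ran between 105 and 559 CPM with a median of 308, so both HFD high-Afp livers lay inside the tumour range and both alcohol ones lay below it. These values chose the groups and carry no test.

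**Figure D1:**
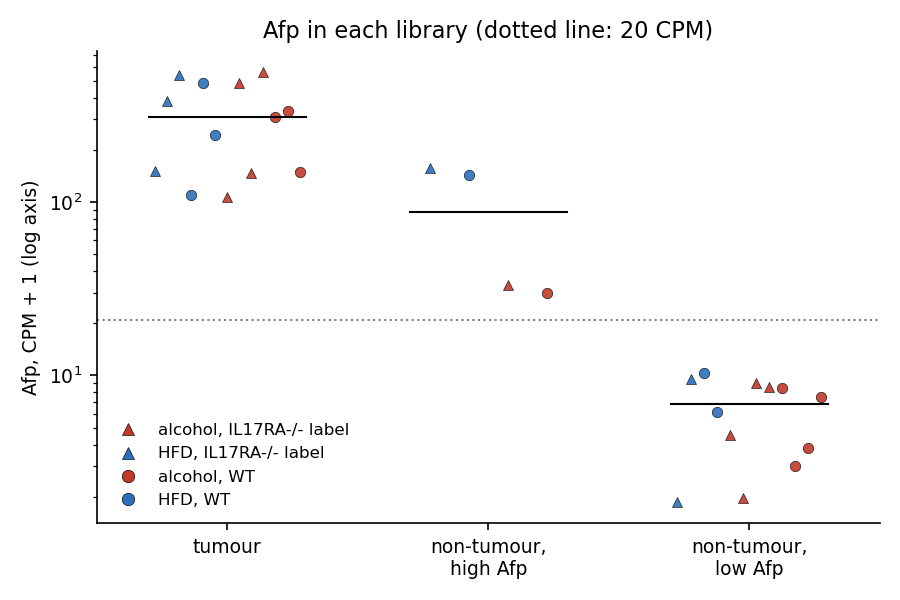
Afp in each library as CPM + 1 on a log axis, for tumours (n = 13), high-Afp non-tumour livers (n = 4) and low-Afp non-tumour livers (n = 12). Points are libraries, coloured by diet and shaped by genotype label, bars are medians, and the dotted line marks 20 CPM. The 4 high-Afp livers lie between 28.97 and 155 CPM and the low-Afp livers lie at 9.37 CPM or less.

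The promoters of Afp and of 3 genes that parted the groups are shown because these genes were high in the same livers. The 3 are those with the largest difference among the 15 of 31 separated genes that had a single promoter entry in the RefSeq table (GRCm38.p6). Each sequence covers 250 bases before and 50 bases after the annotated start, 5′ to 3′ on the gene's strand. Capitals mark matches on either strand to TATAAA, the TATA box, and to GTTAAN, a form of the half-site read by hepatocyte nuclear factor 1. The positions are chr5:90490464-90490763 (plus) for Afp, chrX:52613925-52614224 (minus) for Gpc3, chr13:4150597-4150896 (minus) for Akr1c18 and chr2:49619036-49619335 (plus) for Kif5c.
Afp: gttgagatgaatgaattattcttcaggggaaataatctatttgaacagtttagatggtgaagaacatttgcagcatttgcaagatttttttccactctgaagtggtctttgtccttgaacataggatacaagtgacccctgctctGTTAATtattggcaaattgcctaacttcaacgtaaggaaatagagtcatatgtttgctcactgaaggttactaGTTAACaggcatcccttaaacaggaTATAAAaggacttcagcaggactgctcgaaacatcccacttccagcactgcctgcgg
Gpc3: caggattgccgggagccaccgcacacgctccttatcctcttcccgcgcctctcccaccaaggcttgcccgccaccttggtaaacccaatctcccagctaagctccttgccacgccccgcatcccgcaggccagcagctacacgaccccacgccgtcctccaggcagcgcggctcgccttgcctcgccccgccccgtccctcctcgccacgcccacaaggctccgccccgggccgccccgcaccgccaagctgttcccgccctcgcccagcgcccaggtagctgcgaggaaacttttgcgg
Akr1c18: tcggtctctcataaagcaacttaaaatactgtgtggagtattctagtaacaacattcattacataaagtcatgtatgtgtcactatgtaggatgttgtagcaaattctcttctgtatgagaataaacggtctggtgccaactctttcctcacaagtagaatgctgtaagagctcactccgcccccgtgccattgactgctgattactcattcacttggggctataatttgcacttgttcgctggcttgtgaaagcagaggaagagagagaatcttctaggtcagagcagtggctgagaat
Kif5c: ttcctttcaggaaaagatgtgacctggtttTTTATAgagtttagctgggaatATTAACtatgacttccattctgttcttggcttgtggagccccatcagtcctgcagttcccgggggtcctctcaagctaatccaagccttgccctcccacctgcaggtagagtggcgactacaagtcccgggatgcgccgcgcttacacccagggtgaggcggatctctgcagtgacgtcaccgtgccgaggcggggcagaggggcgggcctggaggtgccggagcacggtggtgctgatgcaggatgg
The Afp promoter held 1 TATAAA, 7 bases before the RefSeq start, and 2 matches to GTTAAN, 105 and 32 bases before it. The Kif5c window held 1 of each, 220 and 198 bases before the start, and the Gpc3 and Akr1c18 windows held neither. No match overlapped another. Of 32544 different promoter sequences of this length in the table, 13.6% held TATAAA, 24.2% held GTTAAN at least once and 4.41% at least 2 times. A match describes the letters of the window only.

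Recovered depth was 3213696 to 9169116 counts in the tumours, 5795339 to 9660584 in the high-Afp livers and 4653422 to 9161647 in the low-Afp livers. The floor of 3 counts stood for 0.31 to 0.93 CPM and covers counting error only. All 29 libraries expressed Alb, the albumin gene of hepatocytes, at 57201 to 147502 CPM in tumours, 39185 to 58784 CPM in the high-Afp and 27330 to 44575 CPM in the low-Afp livers. In tumours 1 gene thus took a larger part of the counts.

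The genotype label did not match some genes, and this bears on the results below. Il17ra, the labelled target, averaged 54.2 ± 7.03 CPM in tumours labelled IL17RA-/- (SD, n = 7) and 33.0 ± 8.72 CPM in WT tumours (n = 6). In non-tumour livers on alcohol it averaged 26.1 ± 8.39 CPM under the IL17RA-/- label and 27.5 ± 10.2 CPM in WT (n = 5 each). In these livers its level thus did not follow the label, and in tumours it was on average higher, not lower, under the IL17RA-/- label. Mug2, a murinoglobulin gene on the same chromosome, was 19.9 to 209 CPM in the 7 tumours labelled IL17RA-/- and 1009 to 2346 CPM in the 6 WT tumours. All 4 high-Afp livers, those labelled IL17RA-/- included, had 1073 to 1454 CPM of Mug2. The low-Afp livers fell into 4 with 776 to 1282 CPM and 8 with 25.4 to 75.9 CPM. Whether the livers differ in genetic background was not tested. Mug2 was chosen after its values were seen.

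High-Afp livers were parted from low-Afp livers by a small number of genes, of which 7 are on the list of oncofetal markers described below. Of 12828 genes tested besides Afp, 30 (0.234%) were higher by at least 1 on the log2(CPM + 1) scale with no overlap between the 4 high-Afp and the 12 low-Afp livers. G6pc was the only gene (0.0078%) that was lower in the same way. At an Afp threshold of 50 CPM, which leaves only the HFD livers in the high group, the count was 87 in place of 31, with 20 shared. Without a minimum size, 52 genes (0.405%) were higher and 10 (0.078%) lower with no overlap. The groups were set by a measured value, so these counts describe the livers and carry no test. Of the 30 genes, 8 reached 1 CPM in fewer than 3 low-Afp livers and passed the filter only through the high-Afp livers. A further gene of the 30 has no symbol. The HFD IL17RA-/- liver had the highest value of the 4 in 21 of the 30 genes, the HFD WT liver in 8 and the alcohol WT liver in 1.

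Gpc3 had the largest difference. It encodes glypican 3, a cell-surface proteoglycan of fetal liver and of liver cancer, and lies on chromosome X (52272426 to 52613950, minus strand). It was 263 CPM in the HFD IL17RA-/- liver, 22.0 in the HFD WT liver, 27.8 in the alcohol IL17RA-/- liver and 29.8 in the alcohol WT liver, against 0.919 to 8.35 CPM in the low-Afp livers (median 3.82). The HFD IL17RA-/- liver stood far above the other 3 and inside the tumour range of 66.3 to 401 CPM. The difference was 3.49 on the log2 scale, and 2.67 without that liver. In limma over all 29 libraries, Gpc3 was 4.59 ± 0.53 (SE) higher on the log2 scale in tumours (231 ± 100 CPM, SD, n = 13) than in non-tumour liver (24.3 ± 64.4 CPM, n = 16), with an adjusted p of 5.6e-08. The 2 comparisons share the 16 non-tumour libraries.

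Akr1c18 encodes an aldo-keto reductase that inactivates progesterone. It was 82.4, 42.6, 18.5 and 28.4 CPM in the HFD IL17RA-/-, HFD WT, alcohol IL17RA-/- and alcohol WT high-Afp livers, against 0.139 to 15.5 CPM (median 3.39) in the low-Afp livers. Both HFD livers were above both alcohol livers, a difference of 3.06 between high and low. In tumours it averaged 172 ± 46.2 CPM, against 14.6 ± 21.5 CPM in non-tumour liver (limma log2 difference 4.28 ± 0.51, adjusted p = 9.26e-08).

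Kif5c, a kinesin heavy chain known mainly from neurons, was 59.1, 31.4, 11.2 and 13.4 CPM in the same 4 livers in the same order, against 0.279 to 9.48 CPM (median 2.32) in the low-Afp livers. The groups were parted narrowly by the alcohol livers and widely by the HFD livers. Cacna1b, a neuronal calcium channel subunit, was 17.2, 6.16, 1.90 and 6.50 CPM, against 0 to 1.49 CPM (median 0.318). Of the 12 low-Afp livers, 8 were at or under the floor of 3 counts for this gene. Scn8a, a voltage-gated sodium channel named after its values were seen, was 17.7, 11.2, 13.8 and 5.51 CPM, against 0.697 to 5.15 CPM (median 2.15). Tumours averaged 166 ± 73.8 CPM of Kif5c, 71.8 ± 66.3 of Cacna1b and 65.9 ± 23.0 of Scn8a, against 9.63 ± 15.3, 2.31 ± 4.46 and 4.90 ± 4.98 CPM in non-tumour liver. Limma put the tumour differences at 4.48 ± 0.49, 4.36 ± 0.46 and 3.74 ± 0.33 on the log2 scale, with adjusted p of 2.03e-08, 1.2e-08 and 4.45e-10.

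Genes of epithelial surfaces and secretion were among the 30 as well. Cdh17, an adhesion molecule of the intestine that some liver tumours express, was 27.5, 16.3, 7.42 and 8.20 CPM in the 4 high-Afp livers in the order above, against 0.139 to 7.04 CPM (median 0.663). Of the low-Afp livers, 6 were at or under the floor. Tspan8, a tetraspanin, was 57.1, 37.7, 30.9 and 18.9 CPM, against 0.153 to 15.3 CPM (median 3.98). Cpe, carboxypeptidase E of the secretory pathway, was 19.2, 22.6, 21.4 and 26.9 CPM, against 0.418 to 14.6 CPM (median 2.73). Cpe was nearly level across the 4 livers, whereas Cdh17 and Tspan8 were highest in the HFD IL17RA-/- liver. The differences between high and low were 2.90, 2.75 and 2.53. Limma put the tumour differences at 4.02 ± 0.55, 3.52 ± 0.68 and 3.94 ± 0.57, with adjusted p of 6.91e-07, 7.73e-05 and 1.84e-06. Tumours themselves ran from 2.44 to 411 CPM for Tspan8 and from 10.9 to 314 CPM for Cpe, so single tumours lay below all 4 high-Afp livers.

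Lcn2, lipocalin 2, an iron-siderophore binding protein induced in injured and inflamed liver, was 358, 285, 202 and 239 CPM in the high-Afp livers in the order above, against 3.35 to 167 CPM (median 50.3). Ocstamp, a transmembrane protein known from osteoclast fusion, was 23.3, 24.4, 7.42 and 14.8 CPM, against 1.31 to 4.47 CPM (median 2.49). These differences were 2.42 and 2.34 on the log2 scale. In tumours Lcn2 averaged 920 ± 557 CPM, against 122 ± 105 in non-tumour liver (limma 3.21 ± 0.53, adjusted p = 1.1e-05), and Ocstamp 65.9 ± 52.0, against 6.23 ± 7.64 (3.12 ± 0.49, adjusted p = 5.38e-06).

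Klrb1b, a lectin-like receptor gene of the natural killer complex, was 21.6, 22.8, 4.14 and 5.37 CPM in the high-Afp livers, against 0 to 2.15 CPM (median 0.0742), a difference of 3.17. Of the 12 low-Afp livers, 10 were at or under the floor. In tumours it followed the genotype label: it was 0 to 0.416 CPM in the 7 tumours labelled IL17RA-/- and 0.928 to 106 CPM in the 6 WT tumours. Both high-Afp livers labelled IL17RA-/- therefore lay above all tumours with that label. Klrb1b lies on chromosome 6, as Mug2 and Il17ra do. The 4 low-Afp livers with 776 CPM of Mug2 or more had 0.153 to 2.15 CPM of Klrb1b, and the other 8 had 0 to 0.316 CPM. Whether Klrb1b goes with Afp or with Mug2 was not tested. The limma tumour difference of 1.51 ± 0.57 (adjusted p = 0.023) lost its call in 7 alternatives, 4 of which leave out 1 library each (HFD non-tumour IL17RA-/- replicate 1 or WT replicate 2, or HFD WT tumour replicate 5 or 6, leaving 1.26 to 1.3 on the log2 scale).

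**Figure D2:**
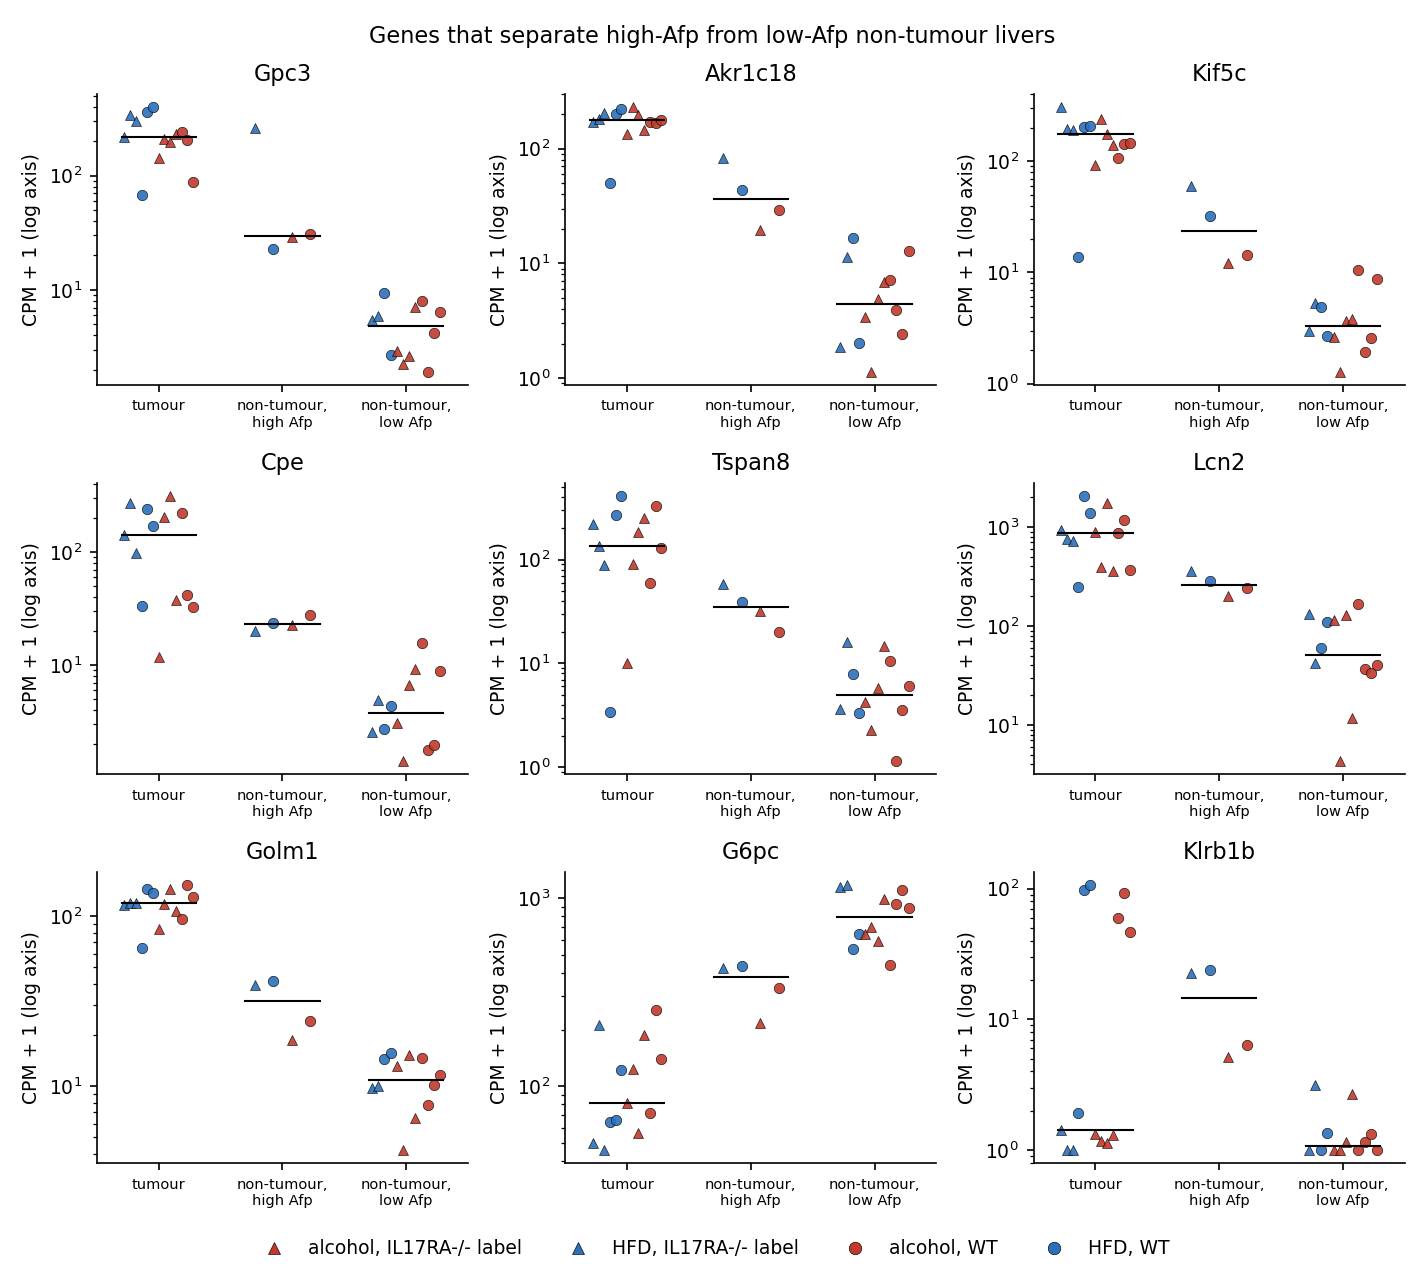
Levels of 9 genes in each library as CPM + 1 on log axes, with tumours (n = 13) at the left, high-Afp livers (n = 4) in the middle and low-Afp livers (n = 12) at the right. Points are libraries and bars are medians. Gpc3 is 22.0 CPM or more in the high-Afp livers and 8.35 CPM or less in the low-Afp livers, and G6pc is 434 CPM or less in the high-Afp livers and 439 CPM or more in the low-Afp livers. In the Klrb1b panel the tumours part by genotype label.

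The oncofetal liver tumour markers had 20 of 22 listed genes in the table besides Afp, and 13 were tested. Of the 13, 12 were higher in the high-Afp livers, with a median difference of 1.63, beside 0.04 over all genes tested, of which 58.9% were positive. A single gene of the 13 reached the filter only through the high-Afp livers. The summed level of the list was 785 to 2245 CPM in tumours, 262 to 766 CPM in the high-Afp and 30.4 to 173 CPM in the low-Afp livers, and none of these ranges overlap. In tumours limma called all 13 tested members higher, beside 36.6% of all 13585 genes called higher and 27% called lower. The list holds genes known from tumours of this kind, and it was chosen with earlier results of these data known.

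Within that list, 7 of the 13 were higher by at least 1 without overlap, beside 0.234% of all genes tested: Gpc3, Akr1c18, Tspan8, Cpe, Spink1, Golm1 and Slpi. Golm1, a Golgi membrane protein shed by liver tumours, was 38.1, 40.8, 17.8 and 23.0 CPM in the high-Afp livers in the order above, against 3.21 to 14.6 CPM. Spink1, a trypsin inhibitor, was 19.98, 1.96, 3.62 and 2.54 CPM, against 0.141 to 1.36 CPM, and its difference of 1.88 was 1.24 without the HFD IL17RA-/- liver. Slpi, a secreted inhibitor of leukocyte proteases, was 13.4, 6.30, 11.4 and 5.23 CPM, against 0.418 to 3.52 CPM. The tumour differences were 3.01 ± 0.25, 3.33 ± 0.37 and 2.42 ± 0.32 in limma, with adjusted p of 1.35e-10, 2.03e-08 and 4.21e-07.

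Another 4 members were higher on average but overlapped. Scd2, a fatty acid desaturase of the fetal liver, was 129, 134, 97.2 and 52.4 CPM in the high-Afp livers, against 7.89 to 63.9 CPM. Ly6d was 87.1, 133.5, 45.6 and 46.2 CPM, against 0.558 to 53.9 CPM. Prom1, the CD133 gene of progenitor cells, was 10.9, 17.7, 3.80 and 4.52 CPM, against 0.764 to 4.77 CPM. For Ly6d and Prom1 the HFD livers were above all low-Afp livers and the alcohol livers were not. Tff3, a trefoil peptide, was 31.4, 2.38, 18.1 and 9.47 CPM, against 0.445 to 15.0 CPM.

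Other fetal markers did not share the pattern. Cd24a, a progenitor surface protein, was 2.93 to 3.83 CPM in the high-Afp and 1.70 to 6.73 CPM in the low-Afp livers, although tumours had 16.4 ± 10.6 CPM, against 3.49 ± 1.28 in non-tumour liver (limma 1.75 ± 0.23, adjusted p = 4.21e-07). Peg3, an imprinted zinc-finger gene, was 6.02 to 13.6 CPM in the high-Afp and 5.97 to 21.4 CPM in the low-Afp livers. Its tumour difference of 0.72 ± 0.29 (limma adjusted p = 0.0345) lost its call in 12 alternatives. Of these, 9 leave out a single library: HFD non-tumour IL17RA-/- replicates 1 and 2, HFD non-tumour WT replicates 1 and 3, alcohol non-tumour WT replicate 2, HFD tumour IL17RA-/- replicate 5, HFD tumour WT replicates 4 and 6, and alcohol tumour WT replicate 5, with 0.62 to 0.70. Igf2, Dlk1, Igf2bp1, Igf2bp3, Lin28b, Hmga2 and Vil1 were under the filter in non-tumour liver. The highest of them in a high-Afp liver was Vil1 at 1.41 CPM, which lay under the highest low-Afp value of 1.83 CPM. Igf2 was 0 to 0.424 CPM in the high-Afp livers and 0 to 0.677 CPM in the low-Afp livers. H19 and Meg3 were not analysed here.

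The repressors of Afp did not part the groups. Zhx2 was 17.9, 18.6, 28.3 and 20.9 CPM in the high-Afp livers in the order above, against 13.5 to 25.2 CPM (median 19.9). Zbtb20 was 391, 414, 882 and 495 CPM, against 373 to 728 CPM (median 534), and Zfhx3 was 25.2, 29, 47.3 and 19.5 CPM, against 17.4 to 41.7 CPM (median 31.3). The alcohol IL17RA-/- liver had the highest value of all 16 for each of the 3 repressors, and the other 3 high-Afp livers lay within the low-Afp range. The differences were 0.13, -0.01 and -0.03 on the log2 scale, and at an Afp threshold of 50 CPM that of Zbtb20 was -0.42. In tumours, limma gave 0.15 ± 0.11 for Zhx2 (adjusted p = 0.237), -0.33 ± 0.12 for Zbtb20 (adjusted p = 0.0178) and 1.18 ± 0.17 for Zfhx3 (adjusted p = 1.63e-06).

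Lpl, lipoprotein lipase and a target of Zhx2 in mouse liver, was 109, 232, 99.2 and 129.7 CPM in the high-Afp livers, against 15.6 to 174 CPM. Elovl3, a fatty acid elongase that is higher in male liver, was 70.6, 82.8, 46.8 and 60.5 CPM, against 34.95 to 583 CPM, a difference of -1.12 with overlap. Trp53 and Foxa2, transcription factors that act on Afp, differed by 0.02 and 0.15, and Trp53 by -0.22 without the HFD WT liver. The 8 tested genes of this list, Gpc3 at 3.49 among them, had a median difference of 0.08 between high and low.

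G6pc, the catalytic subunit of glucose-6-phosphatase and a marker of the mature hepatocyte, was the 1 gene lower by at least 1. It was 425, 434, 216 and 333 CPM in the high-Afp livers in the order above, against 439 to 1175 CPM (median 793). The gap between the groups was narrow, 434 against 439 CPM, and after median-ratio rescaling the groups were no longer parted. The difference was -1.19, and -0.98 without the alcohol IL17RA-/- liver. In tumours G6pc averaged 112 ± 67.9 CPM, against 699 ± 303 CPM in non-tumour liver (limma -2.73 ± 0.28, adjusted p = 7.24e-09).

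The other 9 genes that lay lower without overlap differed by 0.35 or less on the log2 scale. They include Timm9 of mitochondrial protein import, Sdhb of succinate dehydrogenase, Ndufb10 and Uqcrc1 of the respiratory chain, and Opa1 of inner-membrane fusion. Sdhb was 132, 136, 122 and 136 CPM in the high-Afp livers, against 138 to 189 CPM (median 166), a difference of -0.33. Ndufb10 was 61.07, 58.1, 56.8 and 58.7 CPM, against 61.10 to 77.7 CPM (median 69.5). These small differences rest on tight values in the high-Afp livers. Timm9, Uqcrc1 and Opa1 differed by -0.35, -0.23 and -0.17. Also lower without overlap were Ppp2r5a, a phosphatase subunit (-0.26), Urah of uric acid breakdown (-0.25) and H2-Ke6, also called Hsd17b8 (-0.24).

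Another 5 genes without overlap are named after their values were seen. Itih5, an inter-alpha-trypsin inhibitor heavy chain, was 154, 110.3, 50.04 and 70.7 CPM in the high-Afp livers, against 12.4 to 41.4 CPM. Igdcc4, an immunoglobulin superfamily receptor, was 14.7, 6.02, 3.97 and 5.23 CPM, against 0 to 3.07 CPM. Tgfa, a ligand of the epidermal growth factor receptor and a hepatocyte mitogen, was 68.9, 41.2, 44.0 and 42.0 CPM, against 24.5 to 37.4 CPM. Serpina3n, an acute-phase protease inhibitor, was 906, 580.1, 399.8 and 457 CPM, against 225 to 355 CPM. Fn1, fibronectin, was 2873, 2136, 2509 and 2268 CPM, against 1156 to 2117 CPM. For each of the 5 the HFD IL17RA-/- liver was highest.

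Whether the high-Afp livers differ in the direction of tumours was read across diets, so that no library entered both sides. Genes were called in the tumours of a diet with limma and then read in the non-tumour livers of the other. In alcohol libraries limma called 3759 of 13191 genes higher (28.5%) and 3450 lower (26.2%) in tumours. In the HFD livers (2 high-Afp and 4 low-Afp), the 3461 of these higher genes that were read had a median difference of 0.17 between high and low, and 81% were positive. The 3450 lower genes had a median of -0.12, and 78.7% were negative. All 12767 genes read had a median of 0.02, and 54.1% were positive. Genes with a tumour difference over 2 on the log2 scale had larger values: 217 had a median of 0.96, with 99.5% positive, and 247 with a tumour difference under -2 had a median of -0.41, with 92.3% negative. The spread between low-Afp livers was 0.12 for all called higher genes and 0.02 for all called lower genes. It was 0.14 and 0.15 for those over 2 and under -2.

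The reading in the other direction gave smaller values. In HFD libraries limma called 3115 of 13149 genes higher (23.7%) and 2146 lower (16.3%) in tumours. In the alcohol livers (2 high-Afp and 8 low-Afp), the 2876 higher genes read had a median of 0.15, with 79.6% positive, and the 2146 lower genes had a median of -0.06, with 62% negative. All 12714 genes read had a median of 0.05, and 61.4% were positive. The 147 genes with a tumour difference over 2 had a median of 0.72, with 92.5% positive, and the 200 under -2 had a median of -0.09, with 63% negative. The spread between low-Afp livers was 0.13 for all called higher genes and 0.06 for all called lower genes. It was 0.32 and 0.14 for those over 2 and under -2. The medians of 0.15 and -0.06 were thus about as large as that spread, and -0.09 was smaller. No test was made, since genes are not replicates and each diet has 2 high-Afp livers.

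When single high-Afp livers were left out, the medians of all called higher genes moved, and the median of all genes read moved with them. In HFD livers the median of the called higher genes was 0.02 without the WT liver (replicate 1) and 0.33 without the IL17RA-/- liver (replicate 3), and that of the called lower genes -0.18 and -0.07, beside -0.11 and 0.14 over all genes read. In alcohol livers the median of the called higher genes was 0.02 without the IL17RA-/- liver (replicate 5) and 0.29 without the WT liver (replicate 4), beside -0.02 and 0.13 over all genes read. The genes with a tumour difference over 2 kept a median of 0.95 to 1.03 in HFD livers and of 0.70 to 0.78 in alcohol livers when either high-Afp liver was left out.

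**Figure D3:**
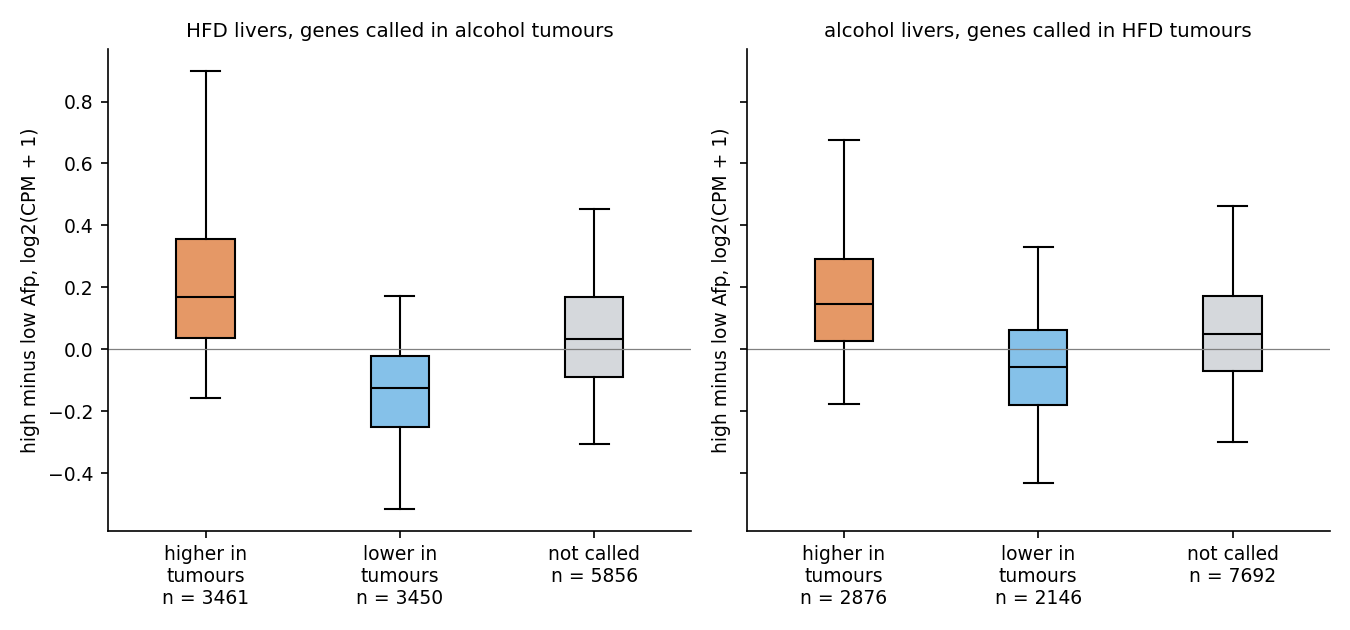
High minus low difference on the log2(CPM + 1) scale for genes called higher, called lower and not called in tumours of the other diet, in HFD livers (left, 2 high-Afp and 4 low-Afp) and alcohol livers (right, 2 high-Afp and 8 low-Afp). Boxes span the quartiles with a line at the median, and whiskers reach the lowest and highest 5%. Genes higher in tumours have medians of 0.17 and 0.15, and genes lower in tumours -0.12 and -0.06.

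The genes that parted the groups within 1 diet were also read in the tumours of the other. Within HFD livers 123 of 12767 genes (0.963%) were higher by at least 1 without overlap, and limma called 113 of them (91.9%) higher in alcohol tumours, beside 27.1% of all genes read. These 113 are 3.26% of the genes called higher there. In the HFD livers 7 genes (0.0548%) were lower in the same way, and 5 of them were called lower in alcohol tumours, beside 27% of all genes read. Within alcohol livers 37 of 12714 genes (0.291%) were higher, and 32 of them (86.5%, and 1.11% of the genes called) were called higher in HFD tumours, beside 22.6% of all genes read. There 8 genes (0.0629%) were lower, and 5 of these were called lower in HFD tumours, beside 16.9%. With only 2 high-Afp livers on each diet, absence of overlap is reached more easily than with 4. The HFD and alcohol livers share 27 genes that were higher in both, which is 22% of the 123 and 71.1% of 38 in alcohol livers, 1 of which was not tested in the HFD tumours.

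A further measure placed each library between the low-Afp livers and the tumours of the other diet, which stand for 0% and 100%. It takes the median over genes with a tumour difference over 2 or under -2 and was chosen after values were seen. For genes higher in tumours, the HFD high-Afp livers lay at 18.2% (IL17RA-/-) and 20.2% (WT), against -0.7% to 2.7% in the 4 low-Afp HFD livers. The alcohol high-Afp livers lay at 6.4% (IL17RA-/-) and 4.9% (WT), against -3.3% to 2.5% in the 8 low-Afp alcohol livers. In both diets the high-Afp livers were above all low-Afp livers and below the tumours, which lay at 38.3% to 110.8% on HFD and 73.5% to 104.3% on alcohol. The 38.3% is a single tumour, HFD WT replicate 4, with quartiles of 13.7% and 83.5% over its genes. The next lowest HFD tumour lay at 79.8%. That replicate 4 also gave the lowest tumour values of Gpc3 (66.3 CPM) and Tspan8 (2.44 CPM). For genes lower in tumours, the HFD high-Afp livers lay at 30.6% and 43.8%, against -1.9% to 18.9%, and the alcohol ones at 8.5% and 11.9%, against -16.2% to 19.7%. In alcohol livers the groups overlapped for these genes. In bulk tissue, fewer cells of a type and less RNA per cell cannot be told apart, and a share of tumour cells in a liver sample was not tested.

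**Figure D4:**
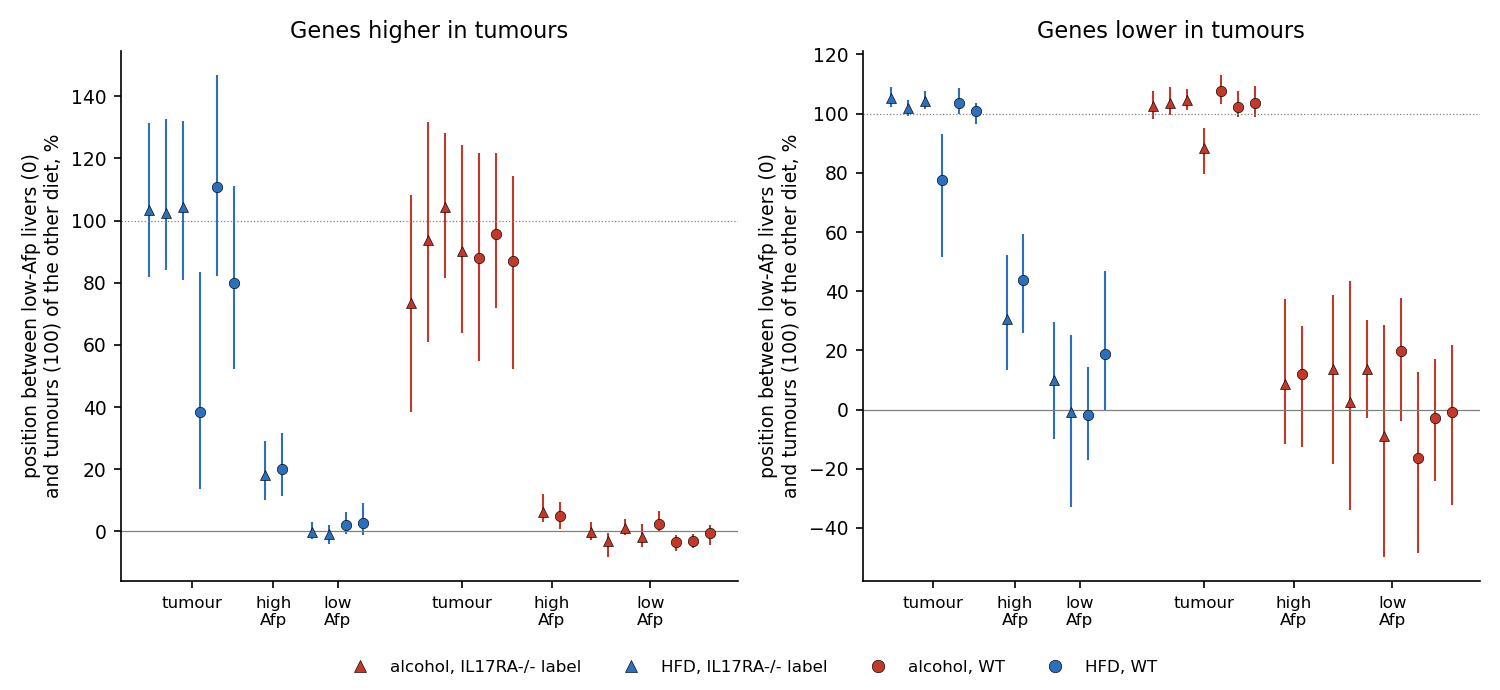
Position of each library between the low-Afp livers (0%) and the tumours (100%) of the other diet, for genes higher (left) and lower (right) in tumours. In each panel HFD libraries come before alcohol libraries, and within a diet tumours, high-Afp and low-Afp livers follow each other. Points are medians over genes and bars span the quartiles. For higher genes the HFD high-Afp livers lie at 18.2% and 20.2% and the alcohol ones at 4.9% and 6.4%.

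Within the 13 tumours, which the rule on Afp in livers did not use, the level of Afp was tested against every other gene with diet and genotype groups in the model. Limma called 0 of 13268 genes (0%), while 829 (6.25%) had an unadjusted p under 0.05, and limma-voom on recovered counts called 0 with 862. Of the 30 genes that were higher in high-Afp livers, 29 had a positive slope on Afp in tumours, with a median of 0.37 per log2 unit of Afp, beside 61.1% positive and a median of 0.03 over all genes. Of the 30, 7 (23.3%) had an unadjusted p under 0.05 with a positive slope, beside 4.89% of all genes. Genes that vary together are not replicates, so these counts over the 30 genes describe the tumours and carry no test. HFD WT tumour replicate 4, with 108 CPM of Afp, had the lowest tumour value of Gpc3, Akr1c18, Kif5c, Tspan8 and Cacna1b. Cdh17, Cpe and Scn8a were lowest in another tumour, alcohol IL17RA-/- replicate 4, with 105 CPM of Afp. How far the slopes of the 30 genes rest on single tumours was not tested. The 30 include the 8 genes that passed the filter only through the high-Afp livers, Cacna1b among them. Cacna1b had a slope of 1.12 ± 0.21 (limma adjusted p = 0.429) and Gpc3 of 0.55 ± 0.17 (adjusted p = 0.7). Without WT alcohol tumour replicate 4 a single gene was called, Kbtbd11, at 0.72 ± 0.08 (limma adjusted p = 0.0304), against an adjusted p of 0.429 with all tumours.

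No tested gene of the male-biased or the female-biased list parted the groups. All 16 tested male-biased liver genes had a negative mean difference between high and low, with a median of -0.53, and -0.28 without the HFD IL17RA-/- liver. Cyp4a12a, a fatty acid hydroxylase of male liver, was 47.4, 168, 194 and 198 CPM in the high-Afp livers in the order above, against 134 to 353 CPM (median 252), and its difference of -0.81 was -0.32 without the HFD IL17RA-/- liver. Limma called all 16 lower in tumours, beside 27% of all genes, with a median of -3.55. All 11 tested female-biased genes had a positive difference, with a median of 0.71, and 0.47 without the alcohol WT liver. A single gene of these 11 passed the filter only through the high-Afp livers. Cyp2a4, a steroid hydroxylase of female liver, was 951, 228, 795 and 599 CPM, against 10.6 to 321 CPM (median 102), and Abcd2, a peroxisomal transporter, was 79.2, 43.6, 27.4 and 30.1 CPM, against 9.19 to 43.8 CPM. Cyp2a4 has close paralogs, as do Mug2, Akr1c18, Cyp4a12a, Saa1, Cyp2c29 and Cyp3a11, so their counts are uncertain. In tumours, limma called 4 of the 11 higher and 2 lower, beside 36.6% and 27% of all genes.

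Lists of metabolic genes of the mature liver had medians slightly below 0, not all of them on both diets. Of 25 drug metabolism genes 19 were lower in the high-Afp livers, with a median of -0.23, and within HFD and alcohol livers the medians were -0.36 and -0.08. Limma called 23 of the 25 lower in tumours, beside 27% of all genes, with a median of -2.36. Cyp2c29 was 1047, 360.5, 569.6 and 768 CPM, against 334 to 1706 CPM, and Cyp3a11 was 2784, 3890.0, 739 and 3809 CPM, against 2049 to 6618 CPM. Both are cytochromes of drug oxidation and both overlapped widely. Periportal genes had a median of -0.32 (11 of 15 lower), with -0.12 within HFD and -0.34 within alcohol livers. Pericentral genes had -0.15 (17 of 19 lower), with -0.41 and 0.04, and bile acid genes -0.16 (15 of 18 lower), with -0.24 and 0.00. Etnppl, a phospholyase of periportal hepatocytes, was 52.8 to 114 CPM in the high-Afp and 64.5 to 214 CPM in the low-Afp livers, whereas Cdh1, E-cadherin, was 26.2 to 51.7 CPM, against 8.02 to 35.6 CPM. Hepatocyte identity genes had a median of 0.01, with 13 of 26 higher.

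Immune genes were higher on average, and 1 liver carried much of it. The HFD WT high-Afp liver had the highest summed level of all 16 livers for these lists among others: 1794 CPM of MHC class II genes, 997 of monocyte-derived macrophage, 51.3 of T and NK cell, 2623 of Kupffer cell and 1907 of interferon response genes. The other 3 high-Afp livers had 261 to 287 CPM of MHC class II genes, against 89.4 to 806 CPM in the low-Afp livers. All 8 MHC class II genes had a positive difference (median 0.53), but the median was -0.11 without the HFD WT liver. All 14 macrophage genes were positive (0.65, and 0.34 without that liver), as were all 10 T and NK cell genes (0.35, and -0.02), and 13 of 15 Kupffer cell genes (0.29, and 0.02). Of the 10 T and NK cell genes, 3 passed the filter only through the high-Afp livers. H2-Eb1, a class II beta chain, was 40.2, 304, 37.1 and 43.7 CPM, against 11.6 to 122 CPM, and Cxcl9, an interferon-induced chemokine, was 32.9, 281, 25.2 and 26.7 CPM, against 12.3 to 41.6 CPM. The part of immune cells in the results above was not tested.

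Among single immune markers, Ciita, the activator of class II genes, was 4.66, 33.6, 7.07 and 4.24 CPM in the high-Afp livers, against 1.26 to 15.0 CPM. Gpnmb and Mmp12 of macrophages were 14.4, 60.7, 12.8 and 29.1 CPM, and 26.2, 72.7, 18.3 and 59.6 CPM, against 0.279 to 80.6 and 0 to 128 CPM. Nkg7 and Ccl5 of T and NK cells were 0.518, 3.78, 2.93 and 0.848 CPM, and 1.66, 8.27, 2.76 and 1.98 CPM, against 0.158 to 1.53 and 0.562 to 5.89 CPM. None of these parted the groups. All 23 interferon response genes had a positive difference, with a median of 0.40, but that median was -0.11 within HFD livers and 0.80 within alcohol livers. Ifi44, one of them, was highest in the alcohol IL17RA-/- liver at 51.1 CPM, against 2.09 to 23.8 CPM in the low-Afp livers. The 3 tested neutrophil genes had a median of 0.85, with S100a9 at 6.42, 7.70, 4.83 and 2.26 CPM, against 0.139 to 4.33 CPM, and S100a8 at 4.24, 3.64, 2.07 and 1.84 CPM, against 0 to 2.84 CPM. Ly6g, which defines neutrophils, was listed at 0 in all 16 livers.

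Cell-cycle genes followed the same liver. Of 34 genes 26 were higher in the high-Afp livers (median 0.44), and the median was 0.10 without the HFD WT liver. Ccne1, cyclin E1, was 5.38, 6.58, 2.07 and 4.52 CPM, against 0.632 to 2.98 CPM, and Ccnd1, cyclin D1, was 41.4, 85.8, 43.3 and 37.5 CPM, against 12.7 to 62.7 CPM. Mki67, the Ki-67 gene, was 17.7, 56.0, 42.8 and 16.96 CPM, against 5.72 to 41.1 CPM. In tumours, limma called 26 of the 34 higher, beside 36.6% of all genes, with a median of 1.17.

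Of 19 acute-phase genes 17 had a positive difference (median 0.37). In tumours, limma called 8 of the 19 higher and 8 lower, beside 36.6% and 27% of all genes. Saa1, serum amyloid A1, was 506, 174, 162 and 143 CPM in the high-Afp livers, against 24.1 to 272 CPM, and was 24.95 ± 13.7 CPM in tumours, against 153 ± 113 CPM in non-tumour liver (limma -2.53 ± 0.30, adjusted p = 7.39e-08). Saa1 was thus higher in high-Afp livers on average and lower in tumours. All 13 tested IL-17-responsive genes were positive (median 0.38), a single gene of them having passed the filter only through the high-Afp livers. Lcn2, one of them, was above all low-Afp livers in high-Afp livers of both genotype labels. Markers of cholangiocytes had a median of 0.23, endothelium 0.10 and stellate cells 0.07, and Krt19 of bile ducts was 0.345 to 0.700 CPM, against 0 to 1.02 CPM.

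**Figure D5:**
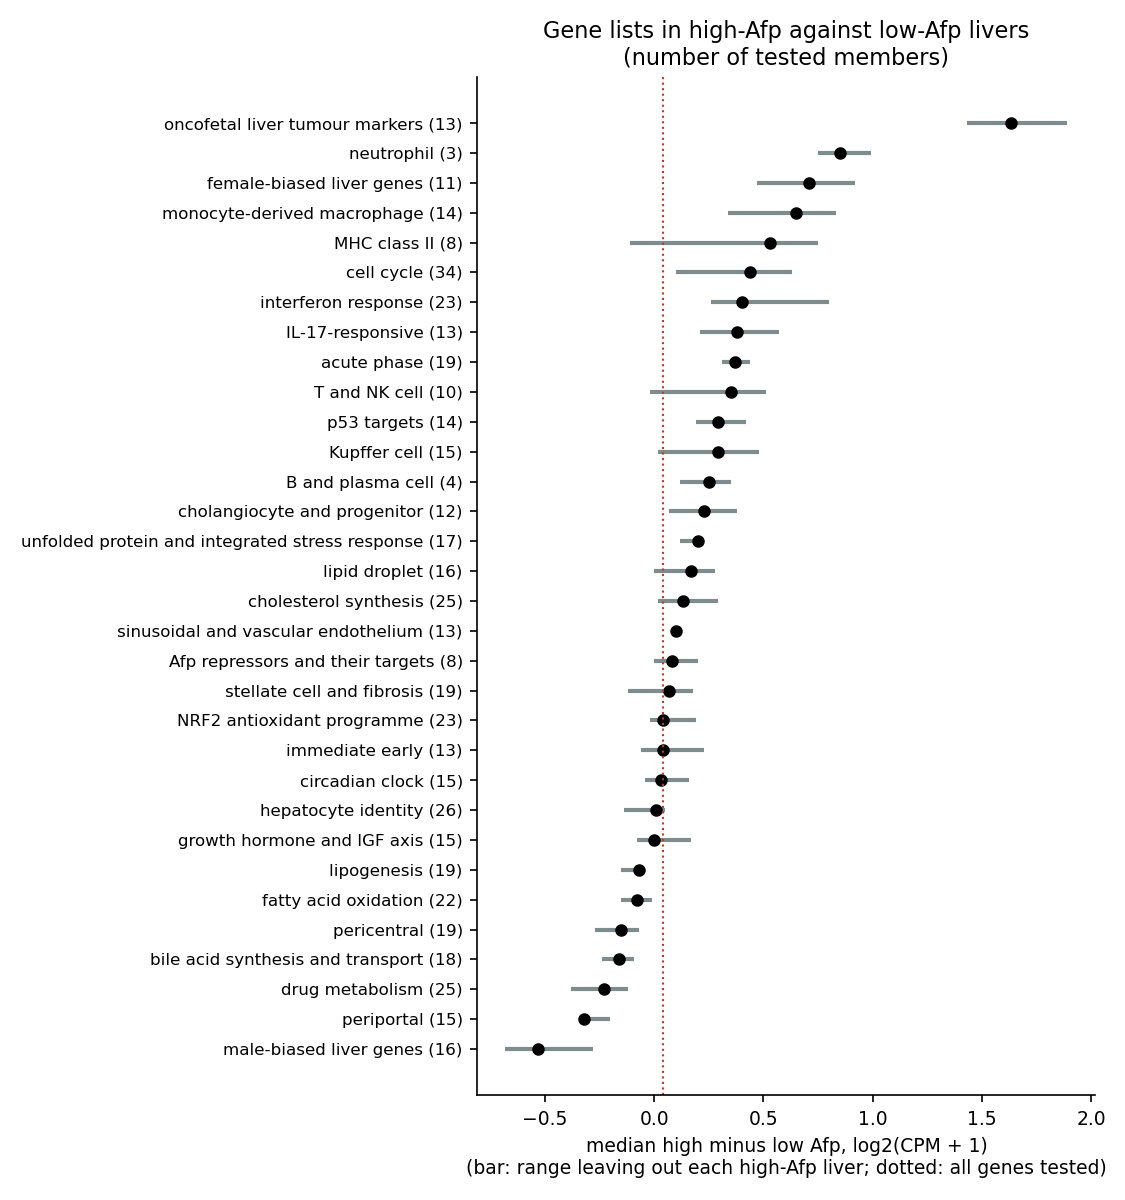
Median high minus low difference on the log2(CPM + 1) scale for 32 gene lists, with the number of tested members in brackets. Points are medians with 4 high-Afp livers, bars span the medians after leaving out each high-Afp liver in turn, and the dotted line is the median of all genes tested (0.04). Oncofetal markers lie highest at 1.63 and male-biased genes lowest at -0.53, and the bar of MHC class II genes reaches -0.11.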

How the data were processed

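The authors deposited 1 table of CPM for 22187 genes, made from stranded polyA libraries, per the labels. The submitters' processing notes name STAR 2.5.1a, RSEM 1.3.0 and GRCm38. The annotation is not given in the sources used here. Symbols came from GENCODE M21 (21653 genes). The deposited CPM step gave back expected counts, of which 83.9% to 86.4% were whole within 0.002. Genes that reached 1 CPM in 3 or more libraries were analysed on log2(CPM + 1), which understates the change of low genes. Tests used limma 3.58.1 with a variance trend in R 4.3.3, two-sided, with Benjamini-Hochberg adjustment and a threshold of 0.05, after being tested on simulated data. Members, gene lists and tests were chosen with earlier results of these data known. The named genes are Afp, the oncofetal and repressor lists, the 10 largest differences each way without overlap and a mean of 5 CPM or more, 2 members of each of the 12 lists farthest from all genes, and Il17ra. Some others are named after their values were seen. A gene that the rule names is not reported here. Other settings tried were Afp thresholds of 10 and 50 CPM, limma-voom, median-ratio rescaling, a pseudocount of 0.1, no minimum level, a replicate block and the omission of single libraries.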

Additional observations from a re-analysis of the deposited data

Results flagged for a closer look

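A single library stood apart from the others of its group in 8 of 189 gene and group pairs checked by Dixon's rule, and chance flags about 1 in 20. In the alcohol IL17RA-/- livers, high-Afp replicate 5 stood out high for Spink1 at 3.62 CPM, against 0.141 to 0.594 in the others, and for Zhx2 at 28.3 CPM, against 17.3 to 19.9. Replicate 2 of the same group had 0.279 CPM of Hmga2, against 0 in the others. In the alcohol WT livers, high-Afp replicate 4 stood out for Klrb1b at 5.37 CPM, against 0 to 0.316, low-Afp replicate 1 for Lpl at 169 CPM, against 126 to 130.0, and low-Afp replicate 2 was low for Zhx2 at 13.5 CPM, against 20.6 to 23.7. In the alcohol tumours labelled IL17RA-/-, replicate 7 had 5.29 CPM of Igf2, against 0.329 to 0.646, and replicate 4 had 0.164 CPM of Lin28b, against 0. The values of Hmga2 and Lin28b lie under the floor of 3 counts. All 8 flags lie in alcohol groups of 4 or 5 libraries. The 189 pairs cover 65 genes, fewer pairs than 8 groups would give, and each HFD group holds 3 libraries. Where the flags lie thus does not compare the diets. Spink1 and Klrb1b were named because they parted the groups without overlap, and each group holds 1 high-Afp liver. For these genes the high-Afp liver is thus highest in its group by choice, and the flags add no support.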

How the results depend on the processing

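The count of 31 genes without overlap and with a difference of at least 1 was 87 at a threshold of 50 CPM (20 shared), 47 at a minimum difference of 0.5, and 31 to 43 when a high-Afp liver was left out. It was 29 to 37 under a pseudocount of 0.1, no filter, rescaling and differences within groups. Whether equal replicate numbers pair the libraries could not be decided. The correlations of deviations in the 4 possible pairs, all on alcohol, were 0.0811, -0.0399, 0.17 and -0.0713. The highest correlations with a liver of another number were 0.0498, 0.1178, 0.0148 and 0.1723 in the same order. HFD tumours and HFD non-tumour livers share no replicate number, so with a replicate block the tumour term rests on those 4 alcohol pairs only. In that setting limma called 4104 genes with all libraries entered and 4138 in alcohol, against 8636 and 7209. Counts with and without the block thus do not rest on the same libraries. Calls stayed between 8176 and 8785 over all libraries, 6666 and 7219 in alcohol and 4116 and 5806 in HFD when a library was left out, and the slope on Afp called 0 to 1. The cross-diet medians ran between 0.02 and 0.33 and between -0.18 and -0.07 in HFD livers, and between 0.02 and 0.29 and between -0.06 and -0.05 in alcohol livers. For genes with a tumour difference over 2 or under -2, a set added after seeing the data, they ran between 0.95 and 1.03 and between -0.49 and -0.35, and between 0.70 and 0.78 and between -0.10 and -0.06. Of 2170 tumour values of named genes 28 lost and 2 gained a call, and 22 of 570 high minus low values moved by more than the spread. No called value changed sign. Groups of 4 and 12 libraries, split by Afp, limit every statement on high and low.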

Other observations

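Genes of other pathways differed little between high-Afp and low-Afp livers. The median difference was 0.13 for cholesterol synthesis (16 of 25 higher), but 0.47 within HFD and -0.13 within alcohol livers. Lipogenesis genes had a median of -0.07 (14 of 19 lower), fatty acid oxidation genes -0.08 (15 of 22 lower), NRF2 genes 0.04 and circadian clock genes 0.03. The unfolded protein and integrated stress response had 0.20 (13 of 17 higher), and p53 targets had 0.29 (9 of 14 higher).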
